A study of Homo sapiens with 24 samples.

Results

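The 46 genes described here encode the core machinery that copies DNA in human cells, from the proteins that mark and license replication origins to the ligase that seals the finished strand. They were taken as a list by gene symbol, and their data are all rows of the splicing tables that lie on the strand and within the GRCh37 span of one of these genes, which gave 9032 rows, 2859 of them at exon-intron boundaries and 6173 for spliced junctions. Of 17673 genes with a boundary of their reference transcript listed, 11208 had enough boundaries with reads in all samples to be tested, and all 46 replication genes were among them.

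The samples were HCT-116 cells, a human colorectal carcinoma line, carrying a lentiviral copy of wild-type PHF5A (WT cells) or of PHF5A with tyrosine 36 replaced by cysteine (Y36C cells). PHF5A is a subunit of SF3b, the part of the U2 small nuclear ribonucleoprotein that recognises the branch point of an intron. Both lines were selected pools that also keep their own PHF5A gene. Each was treated with the solvent DMSO or with E7107, a pladienolide-derived splicing modulator that binds SF3b. Treatment lasted 6 h, and every one of the 4 groups has 6 samples. The labels give no dose, and nothing in them says that samples of a group came from separately grown lines, so that the p-values measure the spread between the samples of each group.

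Each value is a percent spliced in (PSI), the share of the junction reads at one splice site that used one particular outcome. At a boundary row the outcome is a read running from exon into intron, so its PSI measures intron retention, and at the other rows it is one spliced junction. The read counts behind a PSI were not part of the tables, so the depth of each value is unknown and no counting interval can be given. The number of splice sites with reads serves as a rough guide to depth: it had a median of 337968.5 of 636130 sites in WT cells with DMSO, 282785.5 in WT cells with E7107, 336782 in Y36C cells with DMSO and 330507 in Y36C cells with E7107. PSI is an average over all cells of a culture, and a higher value can come from more cells with an unspliced transcript or from more such transcripts per cell, which cannot be told apart. Splice sites of the epithelial genes EPCAM, KRT8, KRT18, CDH1 and CDX2 had reads in all 24 samples (2 of 8 sites for CDX2 to 30 of 43 for CDH1), the 1 site of VIL1 did not, and no sites of PTPRC, CD3E or COL1A2 were listed. COL1A1, listed as a marker of other cell types, had reads in all samples at 85 of 101 sites. The PHF5A genotype cannot be read from these tables.

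DNA replication begins when the origin recognition complex (ORC1 to ORC6), CDC6 and CDT1 load the MCM2 to MCM7 helicase on DNA in G1 phase. The DBF4-CDC7 kinase, MCM10, CDC45 and the GINS complex then turn the helicase on, and polymerases alpha, delta and epsilon, the PCNA clamp with its RFC loader, FEN1, LIG1, RPA and the TIMELESS-TIPIN-CLSPN group build and protect the fork. Many of these genes are transcribed under E2F factors as cells approach S phase.

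In WT cells, E7107 raised the mean boundary PSI of 35 of the 46 genes and lowered it in 6. Over all genes tested 72.1% were called higher and 7.66% lower, so that replication genes were called about as often as genes in general. A gene's value here is the mean PSI of the boundaries of 1 reference transcript, and calls are from limma on the natural-log odds with Benjamini-Hochberg adjustment over all genes. The median of the 46 gene means went from 1.87% to 6.74%, and the same median over all genes from 2.60% to 11.2%. The samples of the 2 groups did not overlap for 33 genes that were higher and 4 that were lower. This was counted for the 46 genes only, so it does not set them apart from other genes.

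In Y36C cells, E7107 raised 33 of the 46 genes (47.2% of all genes were called higher) and lowered 0 (1.15% of all genes). At an unadjusted p under 0.05 the counts were 34 and 0. The rises were small: the median of the gene means went from 1.63% to 2.63%. With the median instead of the mean over the boundaries of a gene, 17 genes were called higher (23.3% of all genes). The samples did not overlap for 21 genes. Neither this count nor any count at an unadjusted p, here or below, was made over all genes.

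Set against each other under E7107, Y36C cells were lower than WT cells in 33 genes (64.8% of all genes) and higher in 9 (15.1%). Under DMSO only POLD2, a polymerase delta subunit, was called, higher in Y36C cells (0.526% of all genes were called higher and 0.5% lower), and no gene was called lower. POLD2 was not called with a replicate block or with the median over boundaries, and with the median 1 gene was called lower. At an unadjusted p under 0.05 those DMSO counts were 5 and 9. The difference between the 2 treatment effects was tested as an interaction over all 24 samples. That difference is signed, as the change in Y36C cells minus the change in WT cells. Here and below, a fall in WT cells without a like fall in Y36C cells therefore counts as a larger change in Y36C cells. The interaction was called in 41 genes: 32 with a smaller change in Y36C cells (60.7% of all genes) and 9 with a larger one (13.1%). Among the 9 were ORC3 and GINS4, which fell in WT cells and were not called in Y36C cells. All of these comparisons share control or treated samples, and they are given side by side.

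**Figure D1:**
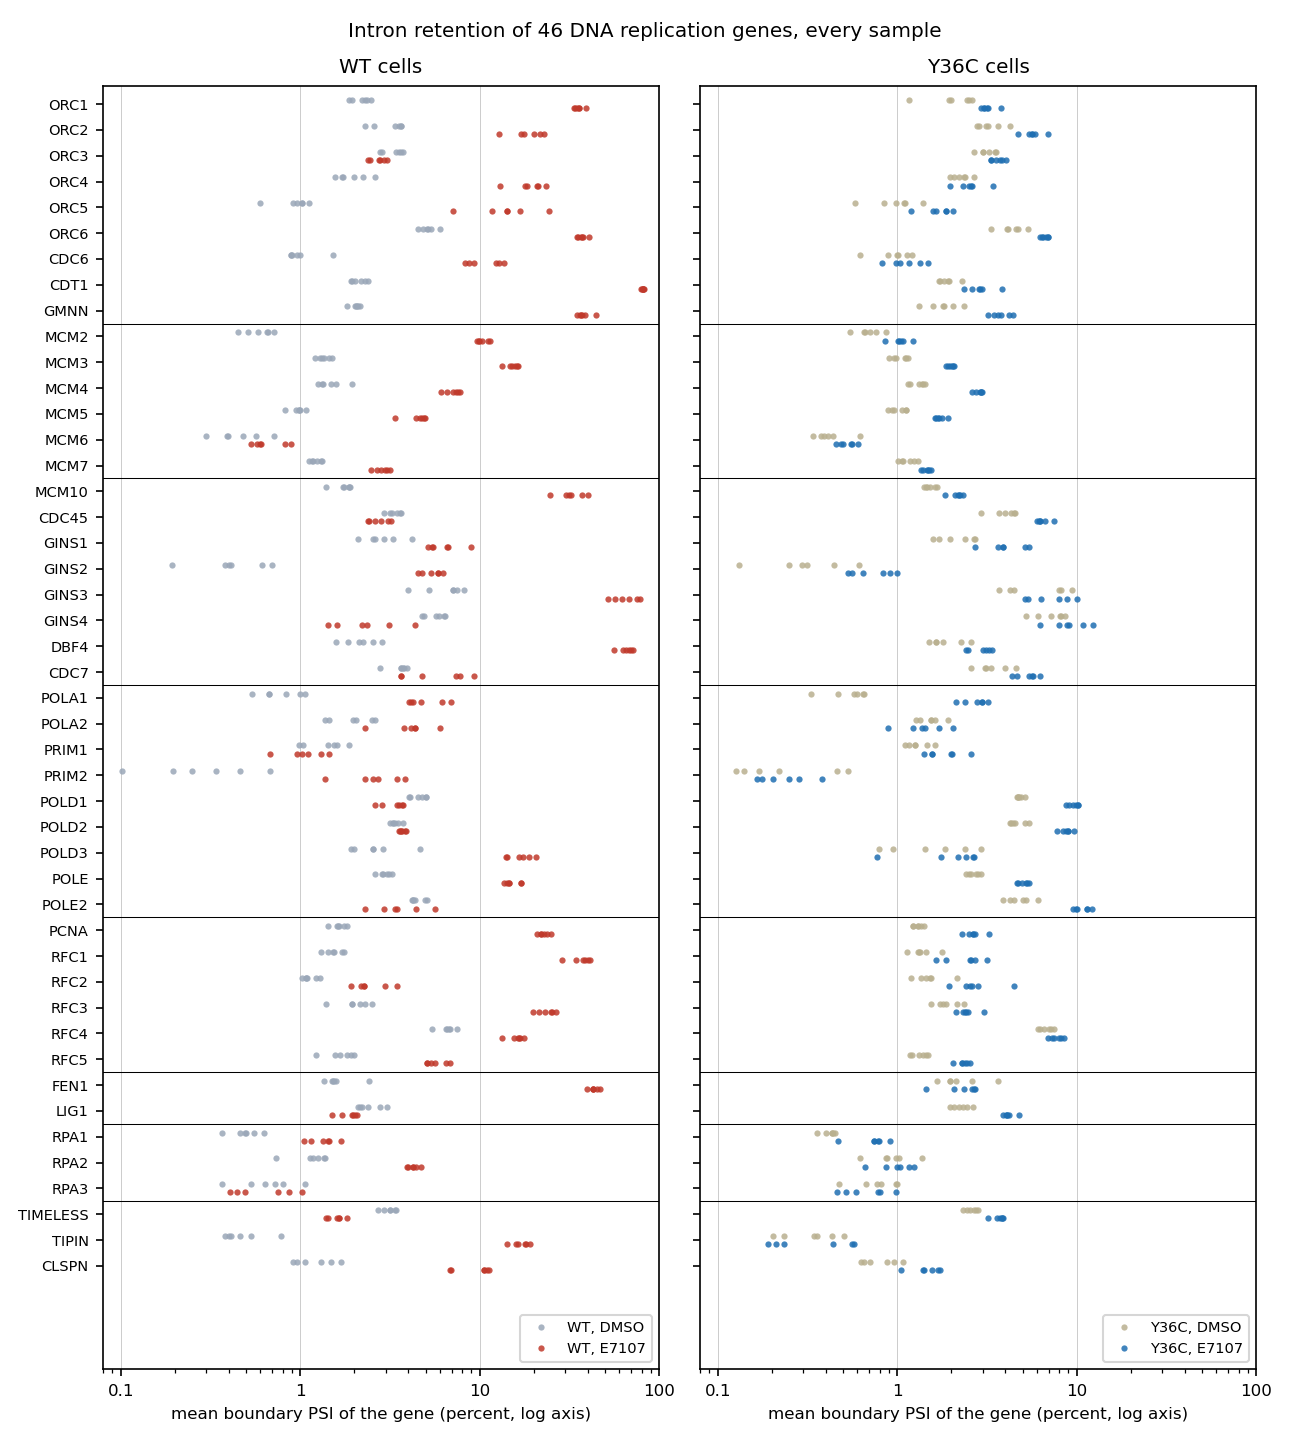
Mean boundary PSI of each of the 46 genes (percent, log axis), 1 point per sample, for WT cells on the left and Y36C cells on the right, with lines between the roles. In WT cells the E7107 points of CDT1, DBF4 and GINS3 lie above 50%, while in Y36C cells no E7107 point of any gene goes above 12.4%.

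The genes fell into patterns. These joint patterns were counted for the replication genes only, without shares over all genes, so they do not set these genes apart. In 23 genes retention rose in both lines with a smaller change in Y36C cells, and in GINS1, CDC7 and RFC2 it rose in both without a difference being called. In 8 genes (ORC4, CDC6, GINS3, PRIM2, POLD3, FEN1, RPA2 and TIPIN) it rose in WT cells, was not called in Y36C cells, and the interaction was called. POLA2 had the same calls, but its sign in WT cells and that of its interaction turned with the median over boundaries. CDC45, POLD1, LIG1 and TIMELESS fell in WT cells and rose in Y36C cells, and of these falls only that of TIMELESS was also called with the median. ORC3 and GINS4 fell in WT cells and were not called in Y36C cells, PRIM1, POLD2 and POLE2 rose in Y36C cells and were not called in WT cells, and MCM6 and RPA3 were called in no treatment comparison.

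Among the 9 licensing genes, 8 rose in WT cells and ORC3 fell. Counts by role, here and below, stand beside the same shares over all genes. These were 72.1% higher and 7.66% lower in WT cells, and 47.2% and 1.15% in Y36C cells. CDT1, which brings the MCM helicase to the origin, had the highest retention of all 46 genes. In WT cells its mean boundary PSI ran from 1.91% to 2.39% (median 2.11%) with DMSO and from 79.9% to 82.5% (median 81.4%) with E7107. In Y36C cells it ran from 1.72% to 2.31% (median 1.87%) and from 2.36% to 3.86% (median 2.88%). The treated and untreated samples were apart in both lines, by nearly the whole scale in WT cells and by a fraction of a percentage point at the closest samples in Y36C cells. The change was 4.89 ± 0.05 (SE) natural-log odds in WT cells (limma adjusted p = 4.81e-15) and 0.31 ± 0.06 in Y36C cells (limma adjusted p = 0.00148), a difference of -4.58 ± 0.07 (limma adjusted p = 8.09e-23).

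GMNN encodes geminin, the inhibitor of CDT1. Its 6 introns averaged 2.04% ± 0.11 (SD, n = 6) in WT cells with DMSO and 38.2% ± 3.48 with E7107, and 1.83% ± 0.361 and 3.79% ± 0.446 in Y36C cells. CDT1 and its inhibitor thus both kept introns in treated WT cells, and in Y36C cells the highest GMNN sample was at 4.4%. CDC6, the ATPase that works with ORC and CDT1, had the smallest change of the licensing genes in Y36C cells: 0.825% to 1.48% (median 1.11%) with E7107 against 0.621% to 1.22% (median 1.01%) with DMSO. These groups overlapped, whereas in WT cells they were apart, at 0.89% to 1.53% (median 0.933%) and 8.26% to 13.7% (median 10.8%).

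The ORC subunits differed among themselves. In WT cells with E7107, ORC1 reached 35.6% ± 1.97 and ORC6 37.1% ± 2.01 (SD, n = 6), ORC2 18.7% ± 3.66, ORC4 19.1% ± 3.59 and ORC5 14.7% ± 5.72. ORC3 stood apart from its partners, at 2.78% to 3.76% (median 3.49%) with DMSO and 2.4% to 3.04% (median 2.77%) with E7107. Its groups overlapped, and the fall of 0.16 ± 0.06 in natural-log odds (adjusted p = 0.0263 in limma) was called neither with the median over boundaries nor with a replicate block (limma adjusted p = 0.079 and 0.0503). ORC2 rose most of the licensing genes in Y36C cells, from between 2.79% and 4.27% (median 3.17%) to between 4.74% and 6.96% (median 5.63%). Those samples did not overlap, and the rise of 0.47 ± 0.07 passed the test (limma adjusted p = 0.000157), though not with the median over boundaries.

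Of the MCM2 to MCM7 helicase subunits, 5 rose in each line and MCM6 was called in neither. MCM3 rose most in WT cells, from between 1.21% and 1.5% (median 1.35%) to between 13.4% and 16.5% (median 15.5%). In Y36C cells MCM3 went from between 0.898% and 1.15% (median 1.05%) to between 1.88% and 2.07% (median 2%). The groups were apart in both lines, with changes of 2.08 ± 0.05 and 0.39 ± 0.03 natural-log odds (limma adjusted p = 8.74e-13 and 1.51e-06). Under E7107 in WT cells MCM2 reached 10.4% ± 0.747, MCM4 7.10% ± 0.641, MCM5 4.52% ± 0.581 and MCM7 2.86% ± 0.252 (SD, n = 6).

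MCM6, a ring subunit like the others, had low retention in all 4 groups. Its 32 boundaries averaged 0.298% to 0.714% (median 0.436%) with DMSO and 0.531% to 0.888% (median 0.604%) with E7107 in WT cells, and the groups overlapped. The change of 0.13 ± 0.06 natural-log odds did not pass the test (limma adjusted p = 0.0687). It did pass with an offset of 0.1 percentage point in the odds and with the median over boundaries, with changes of 0.31 and 0.17. In Y36C cells MCM6 ran from 0.341% to 0.621% (median 0.401%) with DMSO and from 0.458% to 0.609% (median 0.527%) with E7107.

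MCM4 had the largest rise of the ring in Y36C cells, from between 1.15% and 1.43% (median 1.35%) to between 2.61% and 2.96% (median 2.91%). The rise of 0.53 ± 0.03 (limma adjusted p = 2.57e-07) came with non-overlapping samples but was not called with the median over boundaries. The first intron of MCM4 went from 4.57% ± 1.31 to 22.5% ± 0.964 in Y36C cells (SD, n = 6) and from 4.7% ± 1.11 to 15.5% ± 2.59 in WT cells. At the 3′ boundary of that intron the interaction was called (0.55, limma adjusted p = 0.0131), and at its 5′ boundary it was not (0.36, limma adjusted p = 0.193).

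Among the 8 genes that activate the helicase, 6 rose in WT cells and CDC45 and GINS4 fell. DBF4, the regulatory subunit of the CDC7 kinase, came after CDT1 in the size of its rise. In WT cells it ran from 1.59% to 2.84% (median 2.19%) with DMSO and from 56.5% to 71.7% (median 66.9%) with E7107. In Y36C cells the range was 1.5% to 2.6% (median 1.73%) with DMSO and 2.42% to 3.39% (median 3.06%) with E7107. The groups did not overlap in WT cells and overlapped slightly in Y36C cells, with changes of 4.08 ± 0.11 and 0.32 ± 0.07 (limma adjusted p = 2.62e-12 and 0.0037) and a difference of -3.77 ± 0.13 (limma adjusted p = 3.08e-17). CDC7, the kinase itself, moved far less, from 3.6% ± 0.405 to 6.08% ± 2.37 in WT cells and from 3.46% ± 0.735 to 5.34% ± 0.697 in Y36C cells (SD, n = 6), and the difference between the lines was not called (-0.04 ± 0.17, limma adjusted p = 0.851).

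The 4 GINS subunits, which join CDC45 and the MCM ring in the active helicase, did not move together in WT cells. GINS3 went from 6.52% ± 1.57 to 65.4% ± 10.1 (SD, n = 6), though this rests on 2 boundaries with reads in all samples, and GINS2 from 0.449% ± 0.18 to 5.44% ± 0.682. GINS1 went from 2.96% ± 0.736 to 6.39% ± 1.42. GINS4 fell, from between 4.78% and 6.44% (median 5.82%) to between 1.43% and 4.39% (median 2.28%). Its samples did not overlap, and the fall of 0.71 ± 0.13 was called (limma adjusted p = 0.000244). A noncoding gene on the opposite strand, GPAT4-AS1, spans all of GINS4. The fall could therefore not be tested at boundaries free of other genes. In Y36C cells GINS4 ran from 5.2% to 8.57% (median 7.62%) with DMSO and from 6.24% to 12.4% (median 8.92%) with E7107, which overlapped and was not called (limma adjusted p = 0.126).

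CDC45 rose in Y36C cells, while its fall in WT cells depended on the setting. In WT cells it went from between 2.94% and 3.65% (median 3.36%) to between 2.4% and 3.22% (median 2.73%), which overlapped. In Y36C cells it went from between 2.93% and 4.56% (median 4.15%) to between 6.01% and 7.54% (median 6.29%), with no overlap. The interaction was 0.59 ± 0.08 (limma adjusted p = 1.25e-06), and the fall in WT cells of 0.15 ± 0.06 (limma adjusted p = 0.0237) was called neither with the median over boundaries nor with a replicate block (limma adjusted p = 0.091 and 0.0667). GINS2 had the smallest rise of this group in Y36C cells in percentage points, from 0.341% ± 0.167 to 0.746% ± 0.192 (SD, n = 6), which was called (limma adjusted p = 0.00627).

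Of the 9 polymerase genes, 5 rose (POLA2 among them, whose sign turned with the median over boundaries), 3 were not called and POLD1 fell in WT cells, while 6 rose in Y36C cells. POLD1 is the catalytic subunit of polymerase delta, which copies the lagging strand. Across its 52 boundaries it ran from 4.03% to 5.01% (median 4.67%) with DMSO and from 2.62% to 3.74% (median 3.51%) with E7107 in WT cells, and from 4.67% to 5.17% (median 4.75%) and 8.73% to 10.2% (median 9.73%) in Y36C cells. Both changes were without overlap and opposite in sign, at -0.27 ± 0.06 and 0.65 ± 0.04 (limma adjusted p = 0.00182 and 8.47e-08), with an interaction of 0.92 ± 0.07 (limma adjusted p = 5.09e-11). The WT fall depends on how the gene is summed up: with the median over boundaries POLD1 was 0.14 higher and not called, and with only the boundaries that no other gene overlaps it was 0.10 lower and not called.

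POLE2, a non-catalytic subunit of the leading-strand polymerase epsilon, had the largest rise in percentage points of all 46 genes in Y36C cells. It went from between 3.89% and 6.11% (median 4.74%) to between 9.5% and 12.1% (median 10.8%), without overlap (0.77 ± 0.07, limma adjusted p = 3.3e-06). In WT cells it ran from 4.2% to 5.11% (median 4.3%) with DMSO and from 2.29% to 5.67% (median 3.41%) with E7107, which overlapped and was not called (limma adjusted p = 0.113). With the median over boundaries POLE2 was called lower in WT cells, by 0.82 in log odds. POLD2 also rose in Y36C cells, from between 4.28% and 5.41% (median 4.46%) to between 7.74% and 9.72% (median 8.85%). In WT cells POLD2 was not called, at 3.17% to 3.73% (median 3.33%) with DMSO and 3.58% to 3.89% (median 3.67%) with E7107.

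POLD3, the polymerase delta subunit that carries a PCNA-binding motif, rose most of the polymerase genes in WT cells, from between 1.92% and 4.66% (median 2.55%) to between 14% and 20.7% (median 17%). In Y36C cells it was at 0.788% to 2.94% (median 1.64%) and 0.77% to 2.7% (median 2.31%), which overlapped throughout. POLA1, the catalytic subunit of polymerase alpha, had the largest log-odds rise of all 46 genes in Y36C cells, 0.91 ± 0.06 (limma adjusted p = 2.51e-07), from 0.544% ± 0.122 to 2.75% ± 0.405, and rose by 1.25 ± 0.10 in WT cells. POLE, the catalytic subunit of polymerase epsilon, went from 2.97% ± 0.223 to 15.2% ± 1.44 in WT cells and from 2.67% ± 0.197 to 5.06% ± 0.328 in Y36C cells (SD, n = 6).

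POLA2, the regulatory subunit of polymerase alpha, went from between 1.38% and 2.6% (median 2.01%) to between 2.29% and 6.06% (median 4.26%) in WT cells. The groups overlapped, and the rise of 0.56 ± 0.12 (limma adjusted p = 0.00121) turned to a change of -0.57 with the median over boundaries, so no direction is given for this gene. In Y36C cells POLA2 was at 1.28% to 1.92% (median 1.54%) with DMSO and 0.884% to 2.05% (median 1.4%) with E7107. The primase genes were low in every group, with PRIM1 between 0.681% and 2.58% and PRIM2 between 0.102% and 3.83% over all samples.

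All 6 genes of the sliding clamp and its loader rose in both lines, where 72.1% (WT cells) and 47.2% (Y36C cells) of all genes were called higher. PCNA forms the ring that tethers polymerases to DNA. It ran from 1.44% to 1.81% (median 1.64%) and from 20.8% to 24.9% (median 22.6%) in WT cells, and from 1.22% to 1.42% (median 1.3%) and 2.3% to 3.23% (median 2.65%) in Y36C cells. The samples were apart in both lines, with changes of 2.43 ± 0.05 and 0.48 ± 0.04 (limma adjusted p = 2.56e-13 and 2.52e-06).

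RFC1, the large loader subunit, rose most, from between 1.3% and 1.75% (median 1.54%) to between 28.9% and 41.1% (median 38%) in WT cells, and from between 1.14% and 1.78% (median 1.33%) to between 1.65% and 3.15% (median 2.55%) in Y36C cells. RFC2, one of the small subunits, rose least in WT cells, from between 1.03% and 1.29% (median 1.08%) to between 1.92% and 3.48% (median 2.27%). In Y36C cells RFC2 moved by a like amount, from between 1.19% and 2.14% (median 1.48%) to between 1.95% and 4.47% (median 2.58%). No difference between the 2 changes was called for RFC2 (-0.10 ± 0.12, limma adjusted p = 0.484). RFC3 reached 23.6% ± 2.56 in WT cells and 2.47% ± 0.315 in Y36C cells with E7107, the smallest rise of the group there in percentage points. With the median over boundaries the Y36C rises of RFC1, RFC2 and RFC3 were not called.

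FEN1 and LIG1, which trim and join lagging-strand fragments, went in opposite directions in WT cells. FEN1 has a single intron in its reference transcript and lies inside a longer FADS2 transcript on the same strand. Its 2 boundaries went from between 1.35% and 2.41% (median 1.53%) to between 39.6% and 47.1% (median 43.1%) in WT cells. In Y36C cells they stayed at 1.68% to 3.64% (median 2.05%) with DMSO and 1.45% to 2.7% (median 2.49%) with E7107, a change of 0.00 ± 0.10 (limma adjusted p = 0.996). The interaction was -3.37 ± 0.13 (limma adjusted p = 8.26e-17). LIG1, DNA ligase 1, went from between 2.11% and 3.07% (median 2.3%) to between 1.51% and 2.08% (median 1.95%) in WT cells and from between 1.96% and 2.64% (median 2.27%) to between 3.87% and 4.8% (median 4.11%) in Y36C cells. Neither pair of LIG1 groups overlapped, and the interaction was 0.67 ± 0.07 (limma adjusted p = 2.85e-08), while the WT fall was not called with the median over boundaries.

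Of the RPA genes, whose products coat single-stranded DNA, RPA2 rose most in WT cells, from between 0.736% and 1.38% (median 1.22%) to between 3.96% and 4.74% (median 4.26%). In Y36C cells its groups overlapped, at 0.621% to 1.38% (median 0.931%) and 0.659% to 1.25% (median 1.01%). RPA1 rose in both lines, to 1.35% ± 0.23 in WT cells and 0.739% ± 0.145 in Y36C cells, from 0.501% ± 0.0879 and 0.42% ± 0.0348, and the Y36C rise was not called with the median over boundaries. RPA3, with 6 boundaries measured, lay between 0.366% and 1.06% in all 24 samples.

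In the fork protection group, TIPIN rose most in WT cells, from between 0.383% and 0.787% (median 0.44%) to between 14.2% and 19.1% (median 17.2%). Its partner TIMELESS fell in the same samples, from between 2.73% and 3.44% (median 3.18%) to between 1.4% and 1.82% (median 1.63%). Neither gene's groups overlapped, with changes of 2.67 ± 0.07 and -0.48 ± 0.05 (limma adjusted p = 1.71e-12 and 1.05e-06). In Y36C cells TIPIN stayed at 0.19% to 0.574% (median 0.337%) with E7107 against 0.204% to 0.505% (median 0.35%) with DMSO, and TIMELESS rose from between 2.33% and 2.84% (median 2.62%) to between 3.22% and 3.91% (median 3.79%). CLSPN, the checkpoint mediator claspin, reached 9.52% ± 2.06 in WT cells and 1.47% ± 0.251 in Y36C cells.

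**Figure D2:**
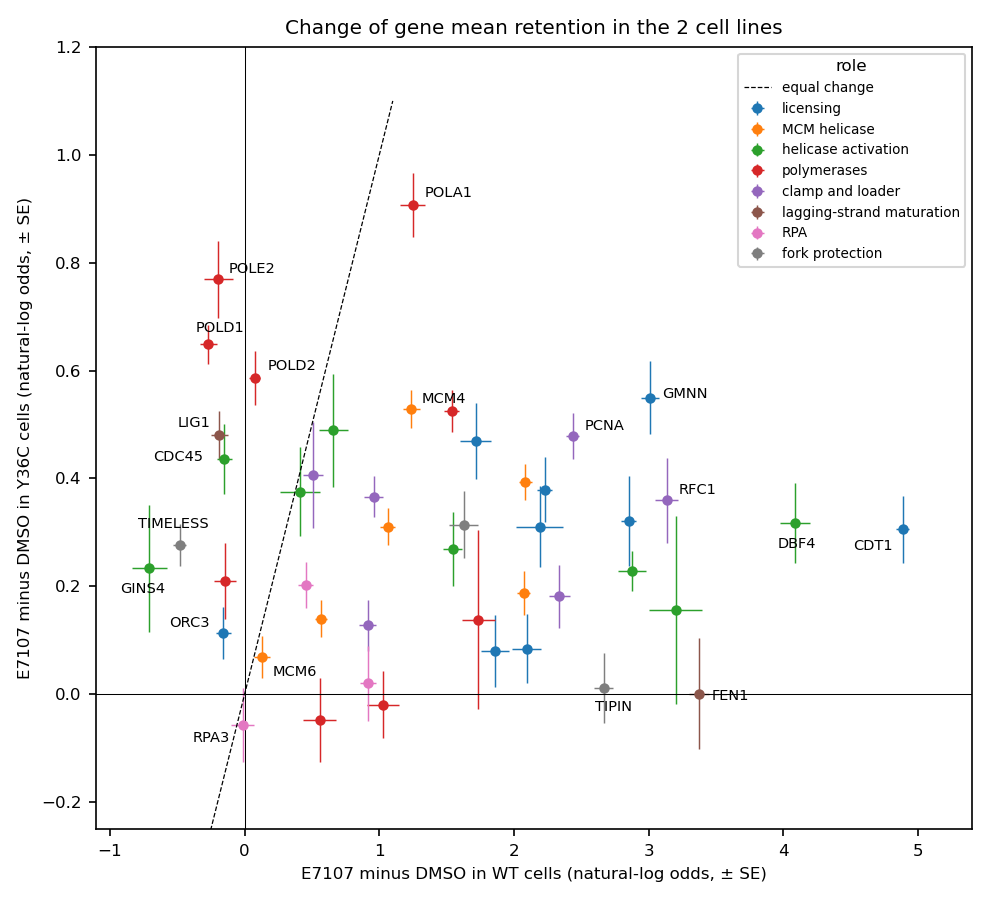
Change of gene mean retention with E7107 in WT cells (x axis) against that in Y36C cells (y axis), in natural-log odds with SE, for the 46 genes coloured by role. CDT1 lies farthest right, at 4.89 and 0.31, and POLD1, POLE2, LIG1, CDC45 and TIMELESS lie to the left of 0 in WT cells and above 0 in Y36C cells.

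Of 26 further replication genes, 21 were higher and 1 lower in WT cells (72.1% and 7.66% of all genes), 18 higher and 0 lower in Y36C cells (47.2% and 1.15%), and 20 had a smaller and 2 a larger change in Y36C cells (60.7% and 13.1%). Their median change in WT cells was 12.1 points, beside 5.30 for the 46 genes and 6.65 over all genes, and no difference between the lists was tested. Among them POLE3, a histone-fold subunit of polymerase epsilon, went from 1.95% to 56.4% in WT cells and from 2.09% to 7.63% in Y36C cells, and TICRR, which brings CDC45 to origins, went from 2.51% to 52.2% and from 1.59% to 2.83%. RNASEH2A, the catalytic subunit of RNase H2, was the 1 gene that fell in WT cells, from 1.47% to 0.604%.

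At single boundaries the same order appeared. In WT cells, 619 of the 870 tested boundaries of the 46 genes rose (70.8% over all genes) and 62 fell (5.78%). In Y36C cells, 159 of 610 rose (26.8%) and 6 fell (1.26%). Under DMSO, 0 of 555 boundaries were higher in Y36C cells (0.0877%) and 1 was lower (0.0778%), against 22 and 31 at an unadjusted p under 0.05. That boundary is the 5′ end of intron 24 of POLE, which was at 2.83% to 5.26% (median 3.79%) in WT cells and at 0 in 5 of 6 Y36C samples, with 2.35% in the other. It was not called with a replicate block, with an offset of 0.1 percentage point or without the filter on low PSI. Under E7107 Y36C cells were lower at 580 of 895 boundaries (62.9%) and higher at 127 (11.7%), and the interaction was called at 539 of 933 with a smaller change in Y36C cells (54.9%) and at 112 with a larger one (8.94%).

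Taking both boundaries of an intron together, 198 of 645 introns of the reference transcripts rose by 10 percentage points or more in WT cells (30.7%) and 17 in Y36C cells (2.64%). Over all genes the shares were 36.4% and 6.18%. A rise of 50 points or more was seen in 27 introns in WT cells (4.19%) and in 0 in Y36C cells, beside 5.75% and 0.00515% over all genes. Of the 10 introns with the largest change in WT cells, 7 were in CDT1 and 3 in DBF4.

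CDT1 intron 2, at chr16:88871076-88871169 between coding exons, was the most retained. Its PSI was 1.64% to 2.69% (median 1.97%) with DMSO and 91.8% to 93.9% (median 92.5%) with E7107 in WT cells, and 0.409% to 2.52% (median 1.58%) and 2.48% to 5.18% (median 3.67%) in Y36C cells. All 9 introns of CDT1 were retained in treated WT cells, at mean PSIs of 62.8% to 92.7%. DBF4 intron 1, at chr7:87506094-87507367, was at 0 in 5 of 6 WT samples with DMSO, with 0.4% in the other, and at 69.7% to 77.5% (median 74.5%) with E7107. In Y36C cells with E7107 it was at 0 in 5 of 6 samples, with 0.625% in the other. The difference between the 2 changes was -5.02 and -6.15 natural-log odds at its 5′ and 3′ boundaries. Both boundaries passed the filter on low PSI only through the treated WT samples, so no p-value is given for them.

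**Figure D3:**
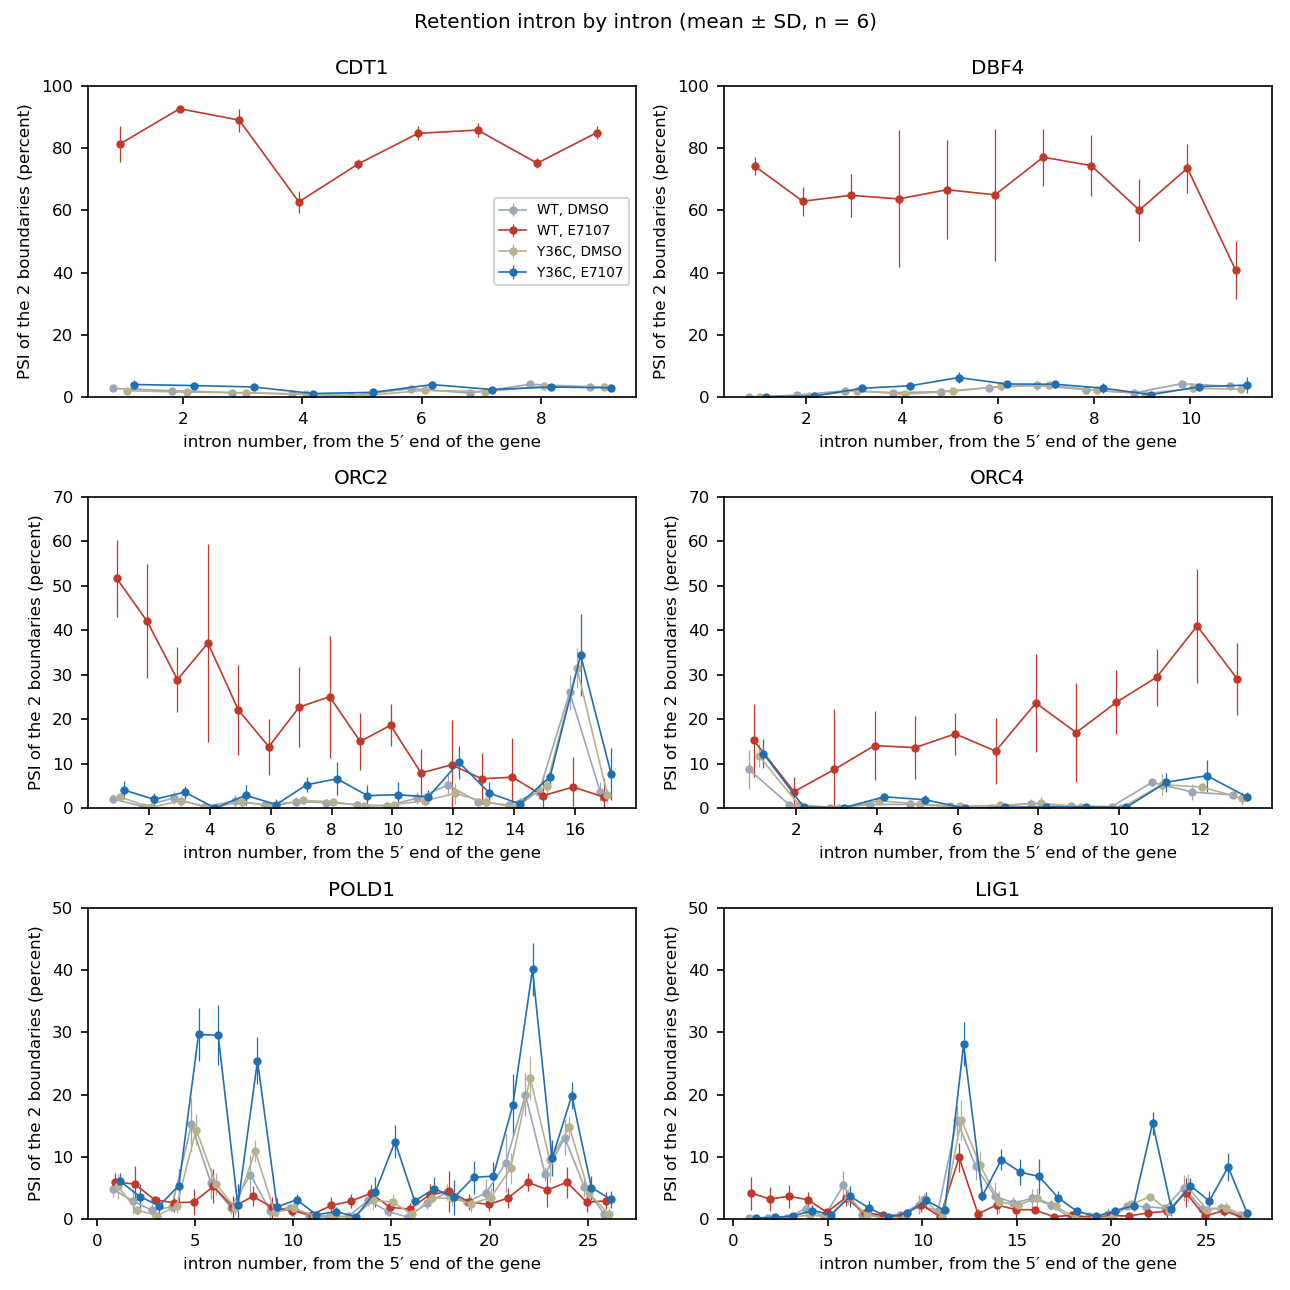
PSI of the 2 boundaries of each intron (percent, mean ± SD, n = 6) along 6 genes in the 4 groups. In treated WT cells every intron of CDT1 lies above 60%, ORC2 falls from 51.7% at intron 1 to 2.5% at intron 17, ORC4 is highest towards its 3′ end, and in POLD1 and LIG1 the peaks belong to treated Y36C cells.

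Splice sites are shown for 2 introns retained in treated WT cells, 2 retained in treated Y36C cells and 1 that hardly changed, and all of them begin with GT and end with AG. Each 5′ site is printed with the last 3 exon bases and the first 8 intron bases, and each 3′ site with the last 24 intron bases and the first 3 exon bases, from GRCh37 and in the direction of the transcript. Capitals mark the pair of bases at each end of the intron.
CDT1 intron 2, 5′ site: cagGTgagggg
CDT1 intron 2, 3′ site: ccgtgtcccctgatccccctgaAGgac
DBF4 intron 1, 5′ site: aggGTaagaag
DBF4 intron 1, 3′ site: tctgattctaaacatctttaatAGgtg
POLD1 intron 5, 5′ site: agaGTgagtgc
POLD1 intron 5, 3′ site: ggtcccagcttcttccatccacAGgca
POLD1 intron 6, 5′ site: ccgGTacggcc
POLD1 intron 6, 3′ site: ccactgacccccagccccctccAGgtt
LIG1 intron 10, 5′ site: gaaGTgaggtt
LIG1 intron 10, 3′ site: cttgcgtctcttttccttccctAGggt

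In Y36C cells the largest changes were in polymerase genes: POLD1 had 4 of the 10, POLE2 had 3, POLE had 2 and MCM4 had 1. POLD1 introns 5 and 6, both 80 bases long, lie next to each other at chr19:50905382-50905461 and chr19:50905631-50905710. Intron 6 was at 3.33% to 7.4% (median 6.36%) with DMSO and 20.7% to 33.3% (median 31.5%) with E7107 in Y36C cells, and at 1.87% to 9.31% (median 5.99%) and 2.55% to 8.79% (median 4.43%) in WT cells. The groups were apart in Y36C cells and overlapped in WT cells, and the interaction was called at both boundaries (1.98 and 1.92, limma adjusted p = 2.36e-05 and 0.000473). Intron 5 was already partly retained with DMSO, at 6.93% to 18.5% (median 16.7%) in WT cells and 10.1% to 17% (median 14.7%) in Y36C cells. With E7107 it dropped to 0.901% to 5.71% (median 1.76%) in WT cells and climbed to 21.4% to 32.5% (median 31.6%) in Y36C cells.

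POLD1 intron 22 did the same from a higher start, from 20% ± 3.45 to 5.93% ± 1.43 in WT cells and from 22.7% ± 3.56 to 40.1% ± 4.23 in Y36C cells (SD, n = 6), although another annotated gene on the same strand covers both of its boundaries. POLE introns 3 and 4 rose in both lines. Intron 4, at chr12:133256633-133256763, went to 26.8% to 47.6% (median 31.2%) in WT cells and to 22% to 33% (median 24.1%) in Y36C cells, from at most 4.32% and 7.23% with DMSO. The interaction was not called at either of its boundaries (-0.70 and -0.52, limma adjusted p = 0.15 and 0.233).

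At the other end were the 5 introns with the smallest change in WT cells. LIG1 intron 10 was at 2.34% ± 1.49 with DMSO and 2.33% ± 1.21 with E7107, CDC45 intron 9 at 3.55% ± 1.2 and 3.53% ± 2.92, and PRIM1 intron 4 and ORC3 intron 6 stayed at or under 2.03% in every sample of both WT groups. The 90-base CDC7 intron 5, at chr1:91977248-91977337, was at 0 in all 12 WT samples. It is also where the lines differed without drug: at its 3′ splice site the spliced junction held 100% of reads in every WT sample and 95.5% to 98.7% (median 97.9%) in Y36C cells with DMSO (limma adjusted p = 0.0163).

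The boundaries with the largest falls in WT cells were picked by their fall in points, so they had to be high without drug. The 3′ boundary of ORC2 intron 16 went from 21.6% to 37% (median 28.1%) to 0 in 4 of 6 samples with a highest value of 14.3%, and in Y36C cells it was at 20% to 46.3% with E7107. The 5′ boundary of POLE2 intron 18 went from 20% to 31.6% (median 24.4%) to at most 16.7% (median 0%), while the 3′ boundary of TIMELESS intron 23 went from 19.9% to 28.6% (median 24.5%) to 1.92% to 8.09% (median 4.87%). In Y36C cells with E7107 this TIMELESS boundary lay at 21.5% to 31.8% (median 23%), as with DMSO (18.1% to 28.2%). The 5 largest falls in Y36C cells included the 5′ boundary of LIG1 intron 13 (10.4% ± 2.83 to 4.5% ± 2.11) and the 3′ boundary of POLE intron 44 (9.44% ± 3.96 to 4.1% ± 1.75), and the other 3 lay at splice sites outside the reference transcripts of RFC5, POLE2 and POLD1.

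The bases of the introns were set beside these changes as a description. The 645 introns had a median length of 1203 bases and a median GC content of 43.3%. Across these introns Spearman's rho of GC content with the change was -0.21 in WT cells and 0.10 in Y36C cells, and across 97073 introns of all genes it was -0.02 and 0.27. Introns of 1 gene share their transcript, so they are not independent points. In WT cells the median change was 6.53 points for the 220 introns under 40% GC and 1.87 points for the 169 with 50% GC or more. In Y36C cells the order turned round, at 0.376 and 0.828 points.

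Reading the splice sites also showed 6 introns of 645 (0.93%) whose first 8 intron bases are ATATCCTT or GTATCCTT, the 5′ signal of introns removed by the minor, U12-dependent spliceosome, which also contains SF3b. Over all genes 382 of 97073 introns (0.394%) began so, searched on the transcribed strand only. These introns were picked out after their sequences and values had been seen, and 2 of them, in PRIM1 and POLE2, start with AT and end with AC instead of GT and AG.
CDC45 intron 10, 5′ site: tgaGTatcctt
ORC3 intron 19, 5′ site: ccaGTatcctt
POLA2 intron 3, 5′ site: gctGTatcctt
POLE2 intron 8, 5′ site: gctATatcctt
POLE2 intron 8, 3′ site: ttattttcctcaactgttgtgtACcag
PRIM1 intron 7, 5′ site: aaaATatcctt
PRIM1 intron 7, 3′ site: gtctgttccttaatgacccatcACcaa
RFC5 intron 8, 5′ site: gaaGTatcctt

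POLE2 intron 8, at chr14:50131393-50131824, was at 3.39% to 8.35% (median 5.95%) and 3.03% to 10.3% (median 5.54%) in WT cells with DMSO and E7107, and at 0.758% to 9.67% (median 5.29%) and 13.7% to 28.8% (median 21.2%) in Y36C cells. It was apart in Y36C cells, where both boundaries were called higher (1.72 and 1.51, limma adjusted p = 0.00308 and 0.0313). In WT cells it overlapped, and its 3′ boundary was called lower (-1.12, limma adjusted p = 0.0218) while its 5′ boundary was not called. CDC45 intron 10 went from 6.5% ± 0.819 to 14% ± 3.71 in Y36C cells, called at both boundaries, and from 5.22% ± 1.38 to 2.69% ± 1.78 in WT cells, called lower at the 5′ boundary. ORC3 intron 19 was called in neither line, RFC5 intron 8 was called higher at its 5′ boundary in WT cells (0.67, limma adjusted p = 0.0264) and not in Y36C cells, and PRIM1 intron 7 rose from 0.999% ± 0.428 to 3.4% ± 1.14 there. POLA2 intron 3 could not be tested. The median change of the 6 introns was -0.468 points in WT cells and 2.23 in Y36C cells, beside 4.88 and 2.34 for the 382.

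Exon skipping followed a different order from retention. An exon-skipping junction here joins annotated exon ends of 1 gene across at least 1 whole annotated exon, and a junction that is itself an intron of the reference transcript was set aside, since it skips only an exon of another transcript. Outside the reference introns, 39 of 101 tested junctions of the 46 genes rose in WT cells (26.4% over all genes) and 19 fell (21.9%). In Y36C cells 60 of 111 rose (40.7%) and 1 fell (4.88%). The interaction was called for 54 of 143 with a larger change in Y36C cells (34.4%) and 29 with a smaller one (14.1%).

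With the reference introns included, the counts were 43 higher and 61 lower of 169 in WT cells (18.6% and 32.8% over all genes) and 62 higher and 22 lower of 180 in Y36C cells (24.6% and 12.7%). Y36C cells with E7107 were higher than WT cells at 97 of 203 (43.9%) and lower at 45 (17.7%), and the interaction was called larger in Y36C cells at 89 of 211 (35.1%) and smaller at 37 (14.0%). Under DMSO 0 of 141 were called in either direction (0.106% and 0.068%), with 12 higher and 6 lower at an unadjusted p under 0.05.

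The junction that rose most in percentage points in Y36C cells skips exon 13 of POLE2, 55 coding bases, and joins exons 12 and 14 (chr14:50120933-50121722). At its shared site the junction held 2.04% to 10.7% (median 7.16%) of reads with DMSO and 41% to 58.8% (median 43.7%) with E7107 in Y36C cells. In WT cells it held 5.19% to 14.1% (median 10.2%) and 0 to 10.7% (median 3.35%). The groups were apart in Y36C cells and overlapped in WT cells, where the junction was called lower (-1.17, limma adjusted p = 0.0386), and the interaction was 3.57 (limma adjusted p = 3.33e-06). Reads running into the intron at the same site made up 6.29% ± 3.55 and 9.05% ± 5.91 in Y36C cells (SD, n = 6), and the other spliced junctions at this site went from 86.8% ± 4.95 to 44.8% ± 6.48. Exon 4 of POLE2, 78 coding bases, was skipped in 2.56% to 9.59% (median 4.59%) and 23.8% to 45.5% (median 29.3%) in Y36C cells and in at most 13.5% in any WT sample.

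GINS1 lost several exons in Y36C cells. The junction from exon 1 to exon 5, which leaves out exons 2 to 4, went from 5.26% to 21.2% (median 11.4%) to 39.2% to 50.7% (median 42.8%). In WT cells it was at 10.7% to 22.8% (median 16.1%) and 9.09% to 25% (median 17.4%), with a change of 0.00 (limma adjusted p = 0.998) against an interaction of 1.79 (limma adjusted p = 7.5e-05). The skip of exons 2 to 5 went from 4.81% ± 1.28 to 21.6% ± 2.79 and that of exon 2 alone from 6.16% ± 2.03 to 18.8% ± 9.21. All 3 junctions leave from the same 5′ site of intron 1, so they are not separate observations. The values for exons 2 to 4 and for exon 2 alone are shares of the reads at the 3′ site the junction enters, and those for exons 2 to 5 are shares at the 5′ site. At that 5′ site, reads running into the intron rose to 47.7% ± 10.9 in WT cells with E7107 and to 13.4% ± 2.92 in Y36C cells, from 5.46% ± 2.3 and 5.43% ± 1.51.

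Shown together are the 3′ sites in front of the skipped exons and the 3′ sites used in their place.
POLE2 intron 12, before skipped exon 13: ttcaatacctttttaaaattttAGatt
POLE2 intron 13, before exon 14: gaattgtgttgaattttgctacAGtag
GINS1 intron 1, before skipped exon 2: tcaatatcggtttatatgttctAGgag
GINS1 intron 4, before exon 5: aaatgatcatctctatgtttgcAGatg
RFC4 intron 8, before skipped exon 9: aataccgaacattcaattacctAGgta
RFC4 intron 10, before exon 11: taatttcttaaatttttctcgtAGgaa

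RFC4, a small loader subunit, changed with little spread between samples, and by more in log odds than POLE2 exon 13 (2.57 against 2.40). The RFC4 junction over exons 9 and 10 was at 0 to 0.635% (median 0%) with DMSO and 10.6% to 13.5% (median 12.3%) with E7107 in Y36C cells, and at no more than 2.27% in any WT sample (interaction 2.60, limma adjusted p = 2.54e-08). Exon 8 of CDC7, 96 coding bases, was skipped in 1.96% to 12.5% (median 4.63%) and 16.1% to 31.2% (median 25.1%) in Y36C cells. In WT cells CDC7 exon 8 skipping was called lower with E7107, at a median of 9.62% and 0%. Exon 12 of ORC1, 108 coding bases, went to 25.2% ± 2.99 from 9.06% ± 2.87, and exon 16 of RFC1 to 12.3% ± 5.73 from 0.987% ± 1.47 (SD, n = 6).

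Exon 2 of DBF4, 173 coding bases, was the one among these whose junction PSI rose in both lines without an interaction being called. It went from 1.79% to 5.15% (median 3.08%) to 13.9% to 23.1% (median 17.7%) in Y36C cells. In WT cells it went from 1.43% to 6.67% (median 3.83%) to 17.6% to 29.6% (median 23.6%). The groups were apart in both, with changes of 1.65 and 1.90 (limma adjusted p = 2.84e-05 and 4.33e-06) and no interaction called (-0.25, limma adjusted p = 0.442). A call that is absent does not show that the changes are equal. The rest of this site differed between the lines. With E7107, reads running into the intron made up 38.7% ± 7.74 in WT cells and 0.365% ± 0.651 in Y36C cells (SD, n = 6). The other spliced junctions at the site made up 37.6% ± 7.96 and 81.9% ± 2.91.

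The largest rises in WT cells outside the reference introns were in POLD3, DBF4, TIPIN and ORC4, whose junctions left out 1, 10, 4 and 2 exons. In DBF4 a junction from exon 1 to exon 12, leaving out 10 exons with 1003 coding bases, was at 0 in all 6 DMSO samples and at 23.8% to 41.1% (median 40.5%) with E7107 in WT cells, and at 0 to 0.84% in Y36C cells. In TIPIN a junction over exons 3 to 6 went from 0 in all 6 samples to 19.2% to 27.1% (median 23.4%), against 0 to 3.17% (median 1.1%) in treated Y36C cells. ORC4 exons 12 and 13 were left out in 20.7% to 31.4% (median 22.7%), against at most 1.33% in WT cells with DMSO and 1.94% in treated Y36C cells. In POLD3 a junction that ends at an alternative last exon went from 7.14% to 18% (median 13.7%) to 66.7% to 100% (median 91.7%) in WT cells, and in Y36C cells from 2.63% to 17% (median 13.4%) to 0 to 12.5% (median 3.08%). For the POLD3 junction the interaction was called with a smaller change in Y36C cells. These junctions of DBF4, TIPIN and ORC4 passed the filter on low PSI only through the treated WT samples, so no interaction call is given for them.

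**Figure D4:**
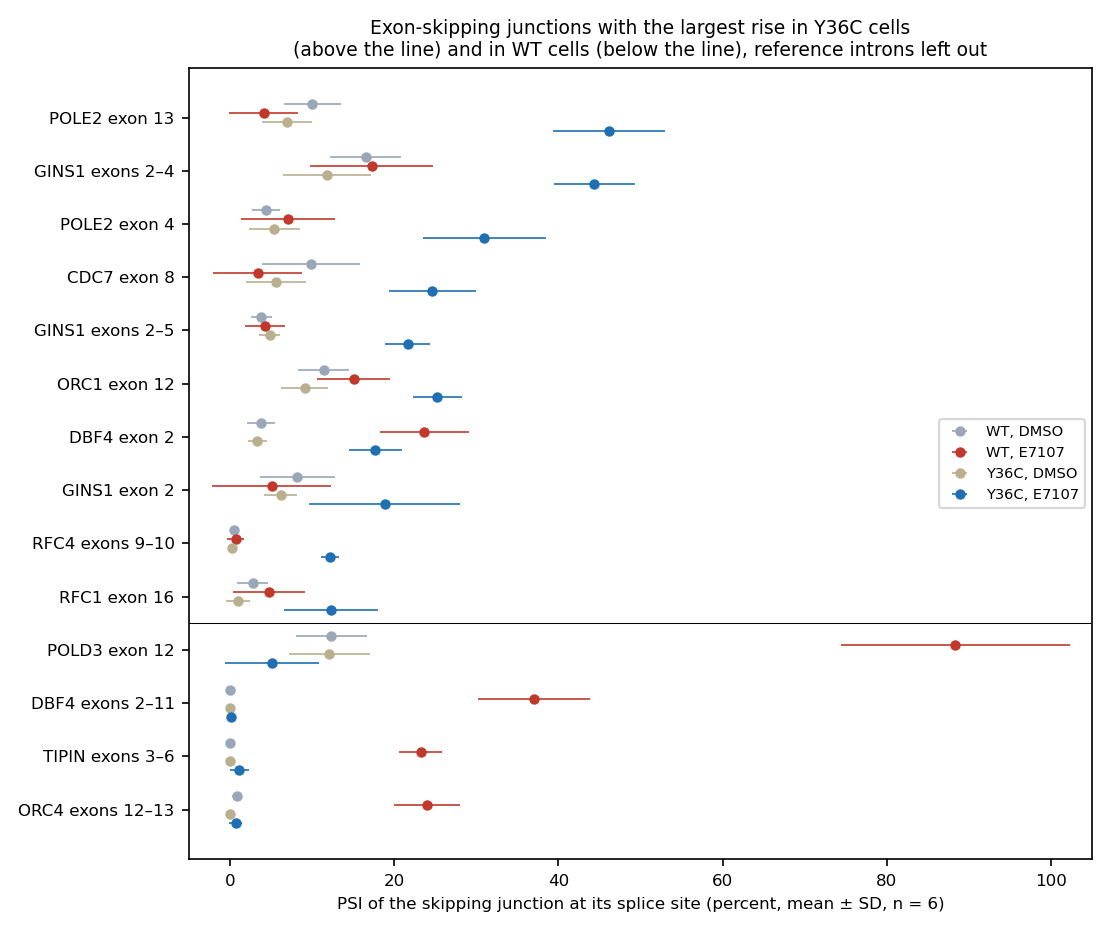
PSI of the exon-skipping junctions at their shared splice site (percent, mean ± SD, n = 6) in the 4 groups, for the 10 with the largest rise in Y36C cells above the line and the 4 with the largest rise in WT cells below it, all outside the reference introns. POLE2 exon 13 and GINS1 exons 2 to 4 reach 46.2% and 44.4% only with E7107 in Y36C cells, DBF4 exon 2 rises in both lines, and those of POLD3, DBF4 (exons 2 to 11), TIPIN and ORC4 rise in WT cells.

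The 60 junctions that rose in Y36C cells lay in 29 genes, and the 39 that rose in WT cells in 23. Of the 60, 48 left out exactly 1 exon of the reference transcript, 46 of those exons were wholly coding, and 17 of the 46 had a length that is a multiple of 3 bases. In WT cells the same counts were 25, 22 and 6. No share over all genes stands beside these counts, so they do not set these genes apart. An exon whose length is not such a multiple shifts the reading frame when it is left out.

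Fewer junctions had an end that is no annotated exon end. In WT cells 2 of 39 rose (7.82% over all genes) and 16 fell (32.7%), and in Y36C cells 13 of 65 rose (13.9%) and 1 fell (8.11%). None of these is part of the counts above.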

How the data were processed

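The authors aligned RNA-seq reads of poly(A)-selected RNA to hg19 with STAR (version not given in the sources used here) and deposited, for each of the 24 samples, the usage of 1830076 junctions and exon-intron boundaries as PSI in percent of the reads at a splice site. No counts were part of these tables, and whether strand was kept in the libraries is not given in the sources used here, so that reads of overlapping genes cannot be told apart. Sites whose PSI values sum to 0 were taken as having no reads, and 6433 rows without a strand or from mitochondria were left out. No 2 samples held identical values.

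Here rows were assigned to genes and introns with GENCODE v44lift37 on GRCh37. limma 3.58.1 in R 4.3.3 was used, the tool of the study's own comparisons, for 4 pairs of groups and, over all 24 samples, for the interaction. The response was the natural log of (PSI + 1) over (100 - PSI + 1), so an offset of 1 percentage point keeps 0 and 100 finite. Rows were tested if reads were present at the site in each fitted sample, if 1 group or more had no sample at 0, and if values varied. Calls are two-sided at an adjusted p of 0.05 over all rows, or over 11208 genes for means over 2 or more boundaries. A junction tested at both ends was counted once, at the end with the smaller p. Samples took their groups from the labels, and no sample was left out. On simulated data made from the real tables the fits recovered the changes put in. This was a check of the fitting steps only, and the accuracy of the calls made here was not tested.

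Genes named are, in each role group, those with the largest and smallest rise in each line, introns and junctions those with the largest and smallest changes, and others were picked after their values were seen. The 46 genes and all lists were chosen with earlier results of these data known. Alternatives were a replicate block, an offset of 0.1 point, PSI itself as response, the median over boundaries, boundaries free of other genes, no filter on low PSI, a change of at least 10 points and, added after seeing the data, junctions outside the reference introns. Tables and plots were made with Python 3.11.15, pandas 2.3.3, numpy 2.4.6 and scipy 1.17.1.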

Additional observations from a re-analysis of the deposited data

Results flagged for a closer look

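In 9 groups of 6 samples out of 104 looked at, 1 sample lay far above the other 5. For normally distributed values, which these PSI means need not be, chance alone gives a far sample on either side in about 1 in 20 groups. With DMSO in WT cells the far samples were CDC6 at 1.53%, FEN1 at 2.41%, POLD3 at 4.66% and TIPIN at 0.787%. In Y36C cells they were MCM6 at 0.621% and RFC2 at 2.14% with DMSO, and LIG1 at 4.80%, RFC2 at 4.47% and RFC3 at 3.07% with E7107.

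The effect of E7107 differed between WT and Y36C cells, tested as an interaction and signed as Y36C minus WT. The difference was positive in 9 genes, 112 boundaries and 89 exon-skipping junctions. It was negative in 32 genes, 539 boundaries and 37 junctions. In natural-log odds of gene mean retention, the difference (Y36C minus WT) was negative for CDT1 (-4.58), DBF4 (-3.77), FEN1 (-3.37), RFC1 (-2.77), TIPIN (-2.65), RFC3 (-2.16), PCNA (-1.96), CDC6 (-1.78), MCM3 (-1.69), POLD3 (-1.60), GINS2 (-1.27), ORC2 (-1.25), RPA2 (-0.90), MCM4 (-0.71), POLA2 (-0.60, but 0.37 with the median over boundaries) and RPA1 (-0.25). It was positive for POLE2 (0.97), GINS4 (0.94), POLD1 (0.92), TIMELESS (0.76), LIG1 (0.67), CDC45 (0.59) and ORC3 (0.27).

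Junctions with at least 1 end that is no annotated exon end were not part of the junction counts above. In WT cells 2 rose and in Y36C cells 13. The largest rise in log odds was in POLA1, at chrX:24760239-24761221. This junction was at 0 in all 6 Y36C samples with DMSO and at 4.44% to 11.8% (median 8.44%) with E7107. In any WT sample it was at no more than 2.56%. It passed the filter on low PSI only through the treated Y36C samples, so no p-value is given for it.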

How the results depend on the processing

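PSI without counts hides how well a single value is known, and a gene mean weighs every boundary alike. Of the counts, 126 alternative values stayed within 1.5 times the reported one and 34 did not. With a change of at least 10 points, higher and lower boundaries were 357 and 11 in WT cells and 40 and 2 in Y36C cells, 45 and 347 for Y36C against WT under E7107, 41 and 330 for the interaction, and the 1 lower boundary under DMSO became 0. Exon-skipping junctions were then 15 and 28, 11 and 9, 38 and 13, and 35 and 14. Outside the reference introns lower junctions were 19 in WT cells and 1 in Y36C cells, with 60 higher under E7107 and 54 for the interaction. With the median over boundaries 17 genes rose in Y36C cells, and under DMSO 0 genes were higher and 1 lower. The 6 boundaries that fell in Y36C cells were 2 with an offset of 0.1 point and 3 without the filter on low PSI. Under DMSO these 2 settings gave 0 lower boundaries and 1 higher exon-skipping junction, and PSI as response gave 1 higher and 2 lower boundaries. Apart from counts whose share over all genes stands in the Results, these counts were made for the replication genes only. The same holds for the counts with a replicate block below, so none of them sets these genes apart.

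Directions turned for 7 gene values: with the median, POLA2 (-0.57), POLD1 (0.14) and RPA3 (0.012) in WT cells, MCM6 (-0.0452) and RPA2 (-0.0187) in Y36C cells and the POLA2 interaction (0.37), and with PSI as response FEN1 in Y36C cells (-0.0179 points). The cause was not tested.

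Replicate numbers do not pair the samples: deviations of samples with the same number correlated between -0.0055 and 0.0059. With a replicate block, 35 genes rose and 4 fell in WT cells, 31 rose in Y36C cells, the interaction counts stayed at 9 and 32, and under DMSO 0 genes were higher and 0 boundaries lower. CDC45 and ORC3 in WT cells were no longer called lower with the block.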

Other observations

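Retention in treated WT cells was not even along a gene. In the 32 replication genes with at least 10 introns measured, Spearman's rho between intron number and the change of PSI in WT cells was negative in 20 (62.5%), with a median of -0.32, beside 56.9% and -0.10 for 3746 genes of the whole series. These are descriptions over introns that share a transcript, chosen after the values had been seen. The extremes were both origin recognition subunits: ORC2, at -0.94 over 17 introns, went from 51.7% retention at intron 1 to 2.5% at intron 17, and ORC4, at 0.95 over 13 introns, was highest at intron 12, at 41%. In RFC1 the highest values lay inside the gene, with 68.6% at intron 13, 65.3% at intron 16 and 65.6% at intron 20, against 4.5% at intron 1.

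Introns with a mean of 20% or more in WT cells without drug did not move alike. No change was called at the tested boundaries of ORC3 intron 14, at 29.8% ± 4.28 with DMSO and 29% ± 4.09 with E7107 (SD, n = 6), or of POLE intron 17, at 27.1% ± 3.3 and 27.5% ± 5.01. POLE intron 15 went from 28% ± 3.21 to 42.2% ± 9.48, with a rise called at its 3′ boundary and not at its 5′ boundary. RFC4 introns 9 and 10 rose from 24.1% ± 4.15 and 26.3% ± 1.63 to 46.5% ± 3.73 and 57.3% ± 8.97. ORC2 intron 16 and TIMELESS intron 23 fell from 26.1% ± 3.9 and 22.1% ± 1.56 to 4.74% ± 6.74 and 4.18% ± 1.09. In treated Y36C cells these introns lay at 29%, 22.4%, 26.6%, 29.1%, 28%, 34.4% and 23.7%, in the same order.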
